A study of Mus musculus with 6 samples.

Results

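The genes of the proteasome were followed in RAW264.7 cells, a mouse macrophage-like line, with and without exposure to itaconate. Members were taken from the count table by symbol: every symbol that begins with Psma, Psmb, Psmc, Psmd, Psme, Psmf or Psmg followed by a digit, and Pomp. The rule gave 51 of the 35976 symbols in the table. By subunit role, 16 belong to the 20S core, 17 to the 19S particle, 3 are other activators or regulators, 8 are assembly factors and 5 are immune subunits. The remaining 2 match by symbol alone: Psmc3ip, which encodes a meiotic recombination protein and no proteasome subunit, and Psme2b, a copy of Psme2.

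The study comprised 3 libraries from untreated cells (control, labelled as no treatment) and 3 from itaconate-treated cells (exposure of 24 h), each counted by 3′ mRNA sequencing. Itaconate is a small metabolite derived from cis-aconitate of the TCA cycle and made by activated macrophages. All libraries come from the one cell line, and the labels name no dose, no chemical form and no vehicle for the control. No label states whether replicates were grown as independent cultures. The p-values below therefore reflect only how far these samples scatter, and that scatter may be technical.

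The libraries held between 5202626 and 6098934 counts. All 12 macrophage markers examined were detected, and their summed level ran from 11302 to 12700 CPM (read counts scaled to a common library size with TMM factors) in control and from 9059 to 9324 CPM in itaconate libraries. Of these markers 7 were called lower (58.3%, against 11.2% of all genes tested) and 2 higher (16.7%, against 10.7%). The part of that shift in the results below was not tested. Of 29 markers of T and NK cells, B cells, fibroblasts, epithelium and neutrophils in the table, 17 had no count in any library, among them Cd3e, Dcn, Krt8 and Ly6g, and the summed level of each of the 5 lists stayed at or below 2.85 CPM in control and 2.10 CPM in itaconate libraries. In bulk RNA, fewer cells of a kind and less RNA per cell cannot be told apart.

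The proteasome is the barrel-shaped protease that degrades ubiquitin-tagged proteins. Its 20S core stacks outer rings of alpha subunits around inner rings of beta subunits, of which beta1, beta2 and beta5 carry the proteolytic sites. The 19S particle caps the core, with a base that binds ubiquitin and unfolds substrates by its ATPases, and a lid that removes ubiquitin. In cells that see interferon, beta1, beta2 and beta5 are replaced during assembly by the immune subunits beta1i (Psmb9), beta2i (Psmb10) and beta5i (Psmb8), and the core can be capped by the PA28 activator made of Psme1 and Psme2, which favours peptides that fit MHC class I molecules. Macrophages carry immune subunits even at rest. The transcription factor NFE2L1 raises proteasome gene expression when proteolysis is impaired, and interferon signalling through IRF1 raises the immune subunits.

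Promoter windows from RefSeq (GRCm38.p6, from 250 bases before to 50 after a start site) were found for 43 of the 51 members, as 46 windows. The start site need not be the first base of the gene's span. The span of Psmd2 begins at 20651122, before the whole of its window. They were searched on both strands for TGACNNNGC, the antioxidant response element read by NFE2L1 and NRF2, for the interferon-stimulated response element (GAAA, 2 bases of any kind, GAAA), and for TTCNNNGAA, the gamma-activated site of interferon-responsive promoters. The windows of the immune subunits are shown because those genes moved together, and the windows of Psmb6, Psme4 and Psmd2 because they are the called-higher members that hold one of these letters. Capitals mark the matches, and each sequence runs 5′ to 3′ on the gene's own strand. Positions count from +1 at the window's start site, with -1 the base before it. Those windows lie at chr17:34197945-34198244 for Psmb8 (+ strand), chr17:34187281-34187580 for Psmb9 (- strand), chr8:105938343-105938642 for Psmb10 (- strand), chr14:55578244-55578543 for Psme1 (+ strand), chr14:55591052-55591351 for Psme2 (- strand), chr11:70525107-70525406 for Psmb6 (+ strand), chr11:30771525-30771824 for Psme4 (+ strand) and chr16:20651402-20651701 for Psmd2 (+ strand).
Psmb8: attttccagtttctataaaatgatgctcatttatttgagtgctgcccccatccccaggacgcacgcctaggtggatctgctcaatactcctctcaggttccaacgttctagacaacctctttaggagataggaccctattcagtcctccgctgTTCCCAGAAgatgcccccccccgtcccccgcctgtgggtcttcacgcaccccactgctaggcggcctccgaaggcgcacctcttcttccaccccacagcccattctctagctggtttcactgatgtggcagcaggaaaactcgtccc
Psmb9: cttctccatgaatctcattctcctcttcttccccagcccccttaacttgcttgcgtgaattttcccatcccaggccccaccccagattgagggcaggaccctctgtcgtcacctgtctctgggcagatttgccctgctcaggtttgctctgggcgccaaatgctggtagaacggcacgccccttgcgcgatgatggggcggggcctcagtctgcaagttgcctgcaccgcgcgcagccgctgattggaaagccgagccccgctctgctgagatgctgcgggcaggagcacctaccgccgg
Psmb10: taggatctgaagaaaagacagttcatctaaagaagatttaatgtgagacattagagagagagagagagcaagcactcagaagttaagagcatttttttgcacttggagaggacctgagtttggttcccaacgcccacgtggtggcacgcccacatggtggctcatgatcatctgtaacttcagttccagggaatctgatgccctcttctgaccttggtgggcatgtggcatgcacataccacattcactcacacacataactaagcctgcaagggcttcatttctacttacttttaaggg
Psme1: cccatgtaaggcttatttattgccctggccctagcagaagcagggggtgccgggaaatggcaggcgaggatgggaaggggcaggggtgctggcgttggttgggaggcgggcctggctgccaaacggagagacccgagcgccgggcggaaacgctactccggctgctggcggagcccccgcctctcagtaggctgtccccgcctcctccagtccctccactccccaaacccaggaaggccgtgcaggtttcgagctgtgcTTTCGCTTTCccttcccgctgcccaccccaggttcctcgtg
Psme2: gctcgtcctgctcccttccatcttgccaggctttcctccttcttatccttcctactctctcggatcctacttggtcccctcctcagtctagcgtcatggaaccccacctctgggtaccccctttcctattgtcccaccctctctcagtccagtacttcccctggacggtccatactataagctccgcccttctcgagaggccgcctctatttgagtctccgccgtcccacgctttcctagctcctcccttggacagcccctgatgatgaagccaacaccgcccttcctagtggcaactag
Psmb6: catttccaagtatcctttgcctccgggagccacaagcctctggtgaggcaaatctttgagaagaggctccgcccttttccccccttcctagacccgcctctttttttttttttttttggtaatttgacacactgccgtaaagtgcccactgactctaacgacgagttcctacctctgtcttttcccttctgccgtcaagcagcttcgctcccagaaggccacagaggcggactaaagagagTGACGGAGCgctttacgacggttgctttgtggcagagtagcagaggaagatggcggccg
Psme4: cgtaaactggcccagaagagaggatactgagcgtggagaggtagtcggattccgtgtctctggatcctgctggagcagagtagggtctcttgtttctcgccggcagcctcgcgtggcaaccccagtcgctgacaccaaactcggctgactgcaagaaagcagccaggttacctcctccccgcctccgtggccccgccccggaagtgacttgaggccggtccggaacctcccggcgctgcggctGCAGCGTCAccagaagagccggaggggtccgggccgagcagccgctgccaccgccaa
Psmd2: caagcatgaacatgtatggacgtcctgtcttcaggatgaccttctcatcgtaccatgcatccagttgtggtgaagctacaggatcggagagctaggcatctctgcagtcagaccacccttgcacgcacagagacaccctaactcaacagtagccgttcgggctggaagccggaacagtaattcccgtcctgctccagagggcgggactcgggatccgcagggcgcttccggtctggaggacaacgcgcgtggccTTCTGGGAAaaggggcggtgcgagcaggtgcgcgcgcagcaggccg

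Among the immune subunits, Psmb8 holds TTCCCAGAA from position -97 and Psme1 holds TTTCGCTTTC, the interferon-stimulated response element on the other strand, from position +10. The windows of Psmb9, Psmb10 and Psme2 hold none of the searched letters, nor does a second, overlapping window of Psme2. Psmb6 holds TGACGGAGC from -9, Psme4 holds GCAGCGTCA, the antioxidant letters on the other strand, from -7, and Psmd2 holds TTCTGGGAA from +5. The antioxidant letters occurred in 6 of the 46 member windows (13%), against 12.4% of all 32851 windows. The interferon-stimulated letters occurred in 5 of 46 (10.9%, against 3.44% of all windows), of which 1 belongs to an immune subunit, and the gamma-activated letters in 3 of 46 (6.52%, against 8.30%). The windows of the 9 called-higher members that have one held the antioxidant letters in 2 cases. These matches describe letters only.

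The comparison asks how transcripts of each part of the proteasome differ after exposure to itaconate. In itaconate-exposed cells the immune subunits were lower and some genes of the 19S particle were higher. Most genes of the 19S particle (11 of 17) and of the 20S core (13 of 15) were not called, as were most of all genes. All 5 immune subunits fell, by 0.42 to 0.75 on the log2 scale, against 11.2% of all genes tested called lower. In the 19S particle 6 of 17 rose (35.3%, against 10.7% of all genes tested) and 0 fell, led by the lid genes Psmd11 and Psmd7. In the 20S core 2 of 15 tested rose (Psma5 and Psmb6; 13.3%, near the 10.7% of all genes) and 0 fell. Psmd5 and Psme4 were the called members of the assembly and activator classes, both higher.

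Calls rest on an adjusted p below 0.05 in edgeR's quasi-likelihood test across 10636 genes, of which 21.9% were called, 10.7% higher and 11.2% lower, with a median log2 fold change of -0.01. Of the 51 members, 50 passed the filter on low counts, and Psmb11, the thymic form of beta5, had 0 counts in all 6 libraries. Among the 50 tested, 10 rose, 6 fell and 34 were not called, with a median log2 fold change of 0.03. The share called higher was 20% against 10.7% of all genes, and the share called lower 12% against 11.2%. In 14 members every itaconate library was above every control library and in 9 every one was below, 23 of 50 without overlap against 35.6% of all genes tested. The 6 that fell include Psmc3ip, and the 9 below include Psmc3ip and Psme2b. These 2 genes match by symbol alone and passed the filter through the control libraries. Without itaconate replicate 2 the number called higher was 6, and with library totals in place of TMM scaling it was also 6.

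**Figure D1:**
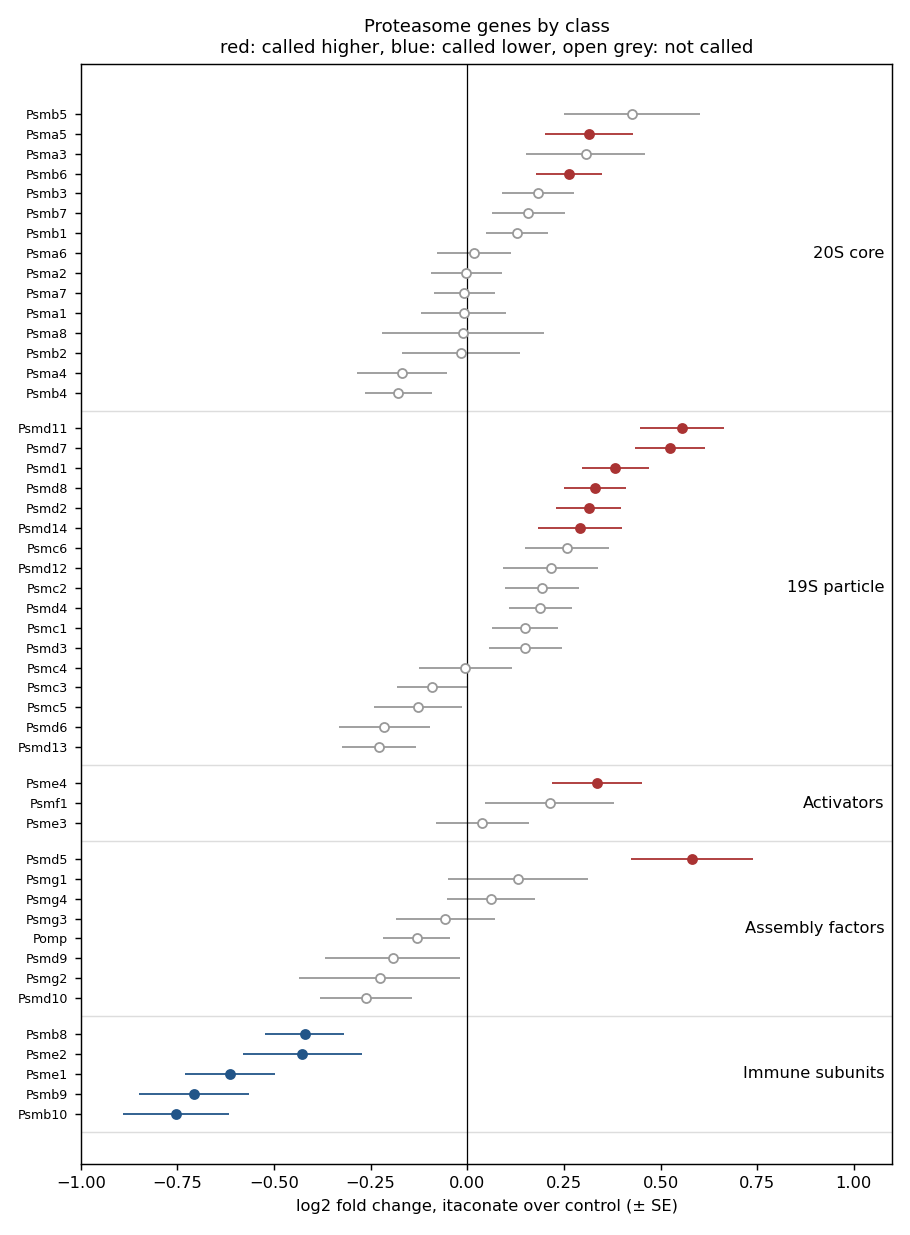
Log2 fold change of itaconate over control (x axis, ± SE) for the 48 tested proteasome genes with an assigned role, grouped by class, with red for called higher, blue for called lower and open grey for not called. The 5 immune subunits lie between -0.75 and -0.42, left of every 20S core and 19S gene.

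Of the immune subunits, the catalytic Psmb10 (beta2i), with trypsin-like activity, had the lowest log2 fold change. It stood at 86.5, 76.2 and 91.2 CPM in control replicates 1 to 3 and at 46.3, 46.9 and 57.2 CPM in itaconate replicates 1 to 3. The groups did not overlap, and the log2 fold change was -0.75 ± 0.14 (SE, edgeR adjusted p = 2.83e-05). Psmb10 lies on chromosome 8 from 105935728 to 105938392.

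Psmb9 (beta1i), which replaces the caspase-like site, measured 73.7, 74.4 and 99.3 CPM in control and 46.5, 48.4 and 56.3 CPM in itaconate libraries. Control replicate 3 was the highest library, and every itaconate library was below every control library. The log2 fold change was -0.71 ± 0.14 (SE, edgeR adjusted p = 0.000131). Psmb8 (beta5i), the chymotrypsin-like site, had 200.4, 166 and 214 CPM in control against 137, 159 and 138 CPM in itaconate libraries. Its lowest control library was 166 CPM and its highest itaconate library 159 CPM, so the groups were separate by a narrow margin, and 9.99% of its searched 3′ stretches (runs of 50 bases) occur in Gm20496 on the opposite strand, with a log2 fold change of -0.42 ± 0.10 (SE, edgeR adjusted p = 0.00151).

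The PA28 genes fell too. Psme1 (PA28 alpha) had 213, 188 and 149 CPM in control and 140, 104 and 116 CPM in itaconate libraries (log2 fold change -0.61 ± 0.12, SE, edgeR adjusted p = 9.21e-05). Control replicate 3 and itaconate replicate 1 were the closest libraries, and 12.9% of its 3′ stretches occur in other genes. Psme2 (PA28 beta) had 62.6, 56.2 and 49.8 CPM against 42.4, 38.7 and 44.4 CPM, with no overlap (-0.43 ± 0.15, SE, edgeR adjusted p = 0.0393). The call of Psme2 was lost without control replicate 1 (0.184), control replicate 2 (0.0933), itaconate replicate 1 (0.0768) or itaconate replicate 2 (0.151), and without the low-count filter (0.0593). Of the stretches of 50 bases searched at the 3′ end of Psme2, 65.7% also occur in other genes, among them Psme2b, so its count is uncertain. Psme2b itself had 4.46 ± 0.263 CPM in control and 1.73 ± 1.28 CPM in itaconate libraries (SD, n = 3) and was not called (edgeR adjusted p = 0.124). It passed the filter through the control libraries. Summed over the 5 immune subunits, the level ran from 561.5 to 635.8 CPM in control and from 396.5 to 412.6 CPM in itaconate libraries.

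**Figure D2:**
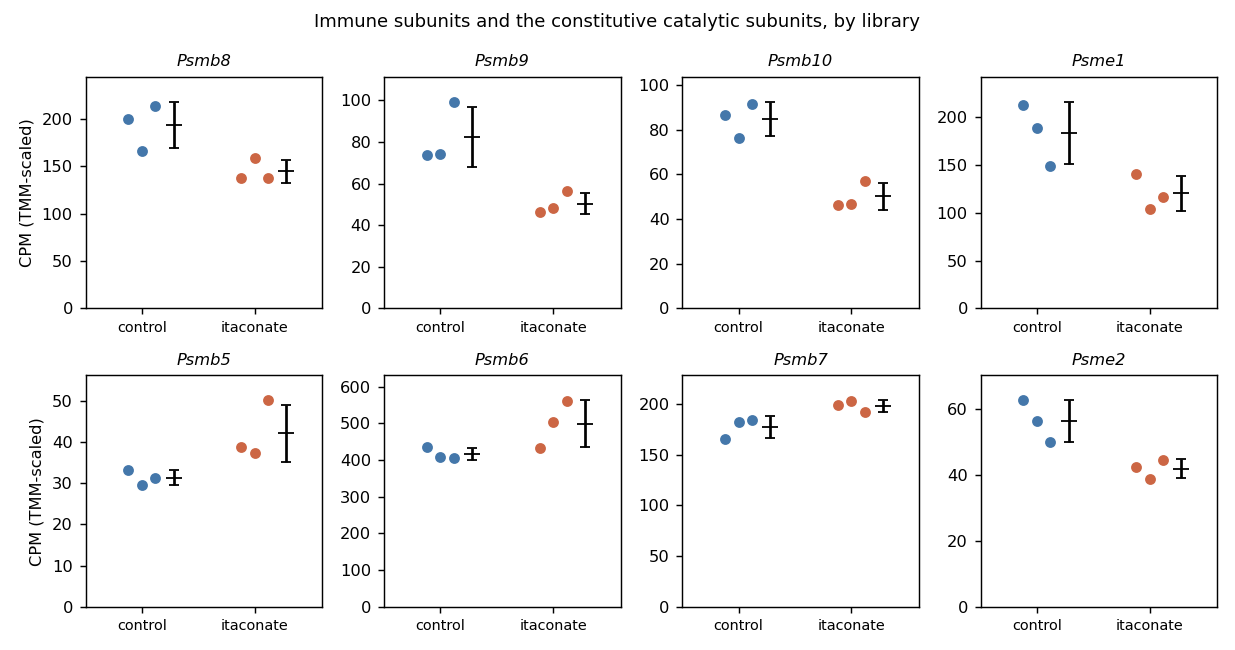
TMM-scaled CPM (y axis, from 0) of the 5 immune subunits and of the constitutive catalytic subunits Psmb5, Psmb6 and Psmb7, with a point per library (blue control, orange itaconate) and bars for the mean ± SD over 3 libraries. Every itaconate point of Psmb8, Psmb9, Psmb10, Psme1 and Psme2 is below every control point.

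The immune subunits sit in 2 gene clusters and 1 separate locus. On chromosome 17 of GRCm38.p6, within the MHC, the order is Psmb9, Tap1, Psmb8 and Tap2. In RefSeq, 225 bases lie between the spans of Psmb9 and Tap1 and 969 between Tap1 and Psmb8. In GENCODE vM21, exons of Psmb9 and Tap1 overlap by 212 bases on opposite strands. Tap1, a chain of the transporter that carries proteasome-made peptides into the ER, fell with its neighbours, from 67.8 ± 6.18 to 47.9 ± 7.28 CPM (SD, n = 3), a log2 fold change of -0.50 ± 0.15 (edgeR adjusted p = 0.00973). That call was lost without control replicate 3 (0.0647) or itaconate replicate 1 (0.0629). The other chain, Tap2, had 15.1, 44.3 and 77.2 CPM in control and 52.4, 41.9 and 64.7 CPM in itaconate libraries. Its control libraries spread over the whole range of the itaconate libraries, and it was not called. On chromosome 14, Psme1 spans 55578494 to 55581527 and Psme2 55587440 to 55591101, and Irf9, an interferon signalling factor 12883 bases beyond Psme2, fell by 1.18 on the log2 scale.

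The constitutive catalytic subunits did not fall. Psmb6 (beta1) rose, with 436, 409 and 405 CPM in control and 434, 503 and 561 CPM in itaconate libraries, where itaconate replicate 1 lay within the control range (log2 fold change 0.26 ± 0.09, SE, edgeR adjusted p = 0.0204). The call was lost without control replicate 2 (0.0846), control replicate 3 (0.0761), itaconate replicate 2 (0.0705) or itaconate replicate 3 (0.164), and with library totals (0.0649). Psmb5 (beta5) had 33.1, 29.6 and 31.3 CPM against 38.8, 37.4 and 50.2 CPM and was not called (0.43 ± 0.18, SE, edgeR adjusted p = 0.0758). Its groups did not overlap, as in 17.6% of all tested genes in this direction. Psmb7 (beta2) had 165, 182 and 184 CPM against 198, 203 and 192 CPM, also without overlap and without a call (0.16 ± 0.09, SE, edgeR adjusted p = 0.249).

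Each immune subunit was then set against the constitutive subunit whose place it takes, since library scaling cancels in such a ratio. In all 3 pairs the immune share of the pair's counts was lower in every itaconate library than in every control library. Psmb9 made up 14.5%, 15.4% and 19.7% of the Psmb9 and Psmb6 counts in control and 9.67%, 8.77% and 9.11% in itaconate libraries. Psmb10 made up 34.4%, 29.5% and 33.1% of its pair with Psmb7 in control and 18.9%, 18.8% and 23.0% in itaconate libraries. For Psmb8, paired with Psmb5, the shares were 85.8%, 84.9% and 87.2% against 78.0%, 80.9% and 73.3%.

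On the log2 scale the ratio of Psmb9 to Psmb6 went from -2.35 ± 0.28 to -3.30 ± 0.08 (SD, n = 3), a difference of -0.95. The difference was -0.92 for Psmb10 to Psmb7 and -0.83 for Psmb8 to Psmb5. The exact permutation test, two-sided, gave p = 0.1 for each of the 3 pairs, the lower limit of a 3 against 3 design, and 0.1 after adjustment over the 3 pairs. A share within a pair depends on how well each 3′ end is primed and mapped, so only its change between groups is read. For Psmb7, 86.9% of the searched 3′ stretches also occur in Nek6, which lies on the opposite strand, and for Psmb5 58.6% occur in Gm3375, so both counts are uncertain. No stretch of Psmb6, Psmb9 or Psmb10 occurred in another gene.

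**Figure D3:**
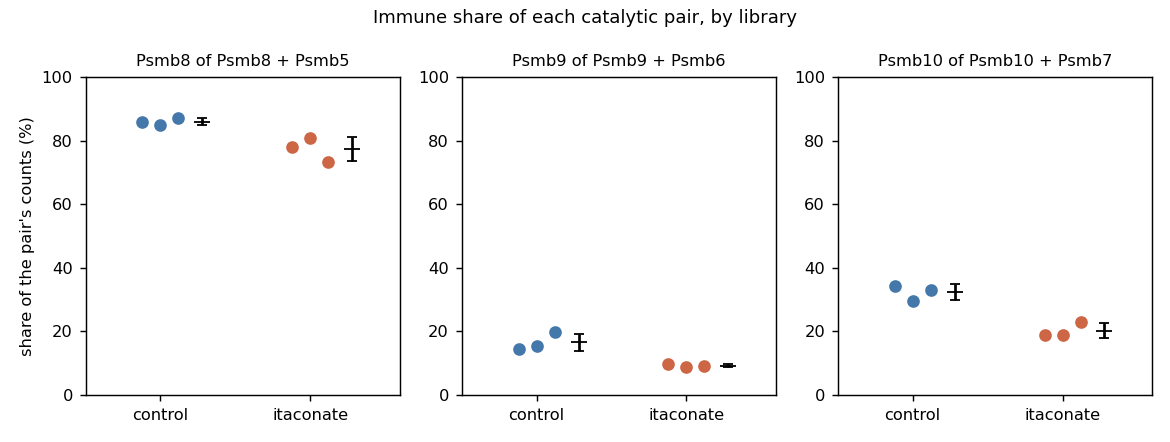
Share of the immune subunit in the summed counts of each catalytic pair (y axis, percent from 0 to 100), with a point per library (blue control, orange itaconate) and bars for the mean ± SD over 3 libraries. Psmb9 went from a mean of 16.5% to 9.19%, Psmb10 from 32.3% to 20.2% and Psmb8 from 86.0% to 77.4%.

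The other genes of the 20S core showed small differences. Among the 7 alpha ring genes Psma1 to Psma7, 1 rose and 0 fell, with log2 fold changes from -0.17 to 0.31 and a median of 0.00. Psma5 (alpha5) was the one that rose, with 90.6, 91.1 and 110.3 CPM in control and 119, 115 and 128 CPM in itaconate libraries (0.31 ± 0.11, SE, edgeR adjusted p = 0.0394). Its call was lost in 7 of 13 alternatives, over which the adjusted p ran from 0.0159 to 0.155, and 53.8% of its searched 3′ stretches occur in other genes. The lost calls were those without control replicate 1 (0.146) or 2 (0.155), without itaconate replicate 1 (0.0668), 2 (0.0565) or 3 (0.121), with library totals (0.0991) and without the low-count filter (0.0545). The beta ring genes without a proteolytic site, Psmb1, Psmb2, Psmb3 and Psmb4, were not called, at log2 fold changes of 0.13, -0.02, 0.18 and -0.18. Psmb4 was called lower with library totals (edgeR adjusted p = 0.0414) and without control replicate 3 (0.0497). Psma8, the germ-cell form of alpha4, was detected at 25.4 CPM in control and 25.1 CPM in itaconate libraries and was not called. Over the whole core the summed level was 3256 ± 148 CPM in control and 3408 ± 110 CPM in itaconate libraries (SD, n = 3), and the groups overlapped.

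In the 19S particle the calls fell on the lid and on the scaffold proteins of the base. Psmd7 (Rpn8), which holds the deubiquitinase Rpn11 in the lid, had the smallest p, with 233, 211 and 202 CPM in control and 331, 289 and 310 CPM in itaconate libraries. The log2 fold change was 0.52 ± 0.09 (SE, edgeR adjusted p = 9.19e-06), and no searched 3′ stretch of Psmd7 occurs in another gene. Psmd11 (Rpn6), which clamps the 19S particle to the core, had 106, 99.4 and 123 CPM against 177, 146 and 160 CPM (0.56 ± 0.11, SE, edgeR adjusted p = 8.16e-05). Other genes hold 26.2% of its searched 3′ stretches. For both lid genes every itaconate library was above every control library.

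Psmd1 (Rpn2), the larger base scaffold, had 376, 402 and 335 CPM in control and 512, 507 and 434 CPM in itaconate libraries (0.38 ± 0.09, SE, edgeR adjusted p = 0.000592). Its 3′ end shares 72.9% of the searched stretches with Gm21972, a model on the same strand, so its count is uncertain. Psmd8 (Rpn12), a lid gene, had 666, 671 and 704 CPM against 770, 829 and 967 CPM, with itaconate replicate 3 the highest (0.33 ± 0.08, SE, edgeR adjusted p = 0.00144). Psmd2 (Rpn1), the other scaffold, which docks ubiquitin carriers, had 285, 275 and 274 CPM in control and 344, 339 and 354 CPM in itaconate libraries. Its replicates lay close together and its groups well apart. The log2 fold change was 0.31 ± 0.08 (edgeR adjusted p = 0.00404) and 25.7% of the searched 3′ stretches occur in another gene. Psmd14 (Rpn11), the deubiquitinase itself, was called by a small margin (0.29 ± 0.11, edgeR adjusted p = 0.0469). Its call was lost in 9 of 13 alternatives, with adjusted p-values up to 0.174. These were the fits without control replicate 1 (0.113) or 3 (0.174), without itaconate replicate 1 (0.172), 2 (0.0682) or 3 (0.0519), with library totals (0.111), without the low-count filter (0.0719), with the replicate block (0.0534) and with limma-voom (0.0516).

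By part of the particle, 4 of 8 lid genes rose, 2 of 3 non-ATPase base genes rose, and 0 of the 6 base ATPase genes Psmc1 to Psmc6 were called, against 10.7% called higher among all genes. The ATPase genes had a median log2 fold change of 0.07 (range -0.13 to 0.26), the lid genes of 0.25 (range -0.23 to 0.56). Whether lid and ATPases differ was not tested. At an unadjusted p under 0.05, 2 of the 6 ATPase genes passed, near the share of all genes (3423 of 10636). Psmc6 (Rpt4), at 0.26, was called without itaconate replicate 1 (edgeR adjusted p = 0.0452). The ubiquitin receptor gene Psmd4 (Rpn10) was not called, at 0.19 ± 0.08, but was called without itaconate replicate 1 (edgeR adjusted p = 0.0177). The lid gene Psmd13 (Rpn9) was lower in every itaconate library than in every control library, as were 17.9% of all tested genes, with 194, 181 and 194 CPM against 150.3, 165 and 171 CPM. It was not called (-0.23 ± 0.10, SE, edgeR adjusted p = 0.0831), and its exons overlap Sirt3 on the opposite strand. The summed level of the 17 genes was 4324 ± 89.0 CPM in control and 5020 ± 268 CPM in itaconate libraries (SD, n = 3), with itaconate replicate 3 the highest.

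**Figure D4:**
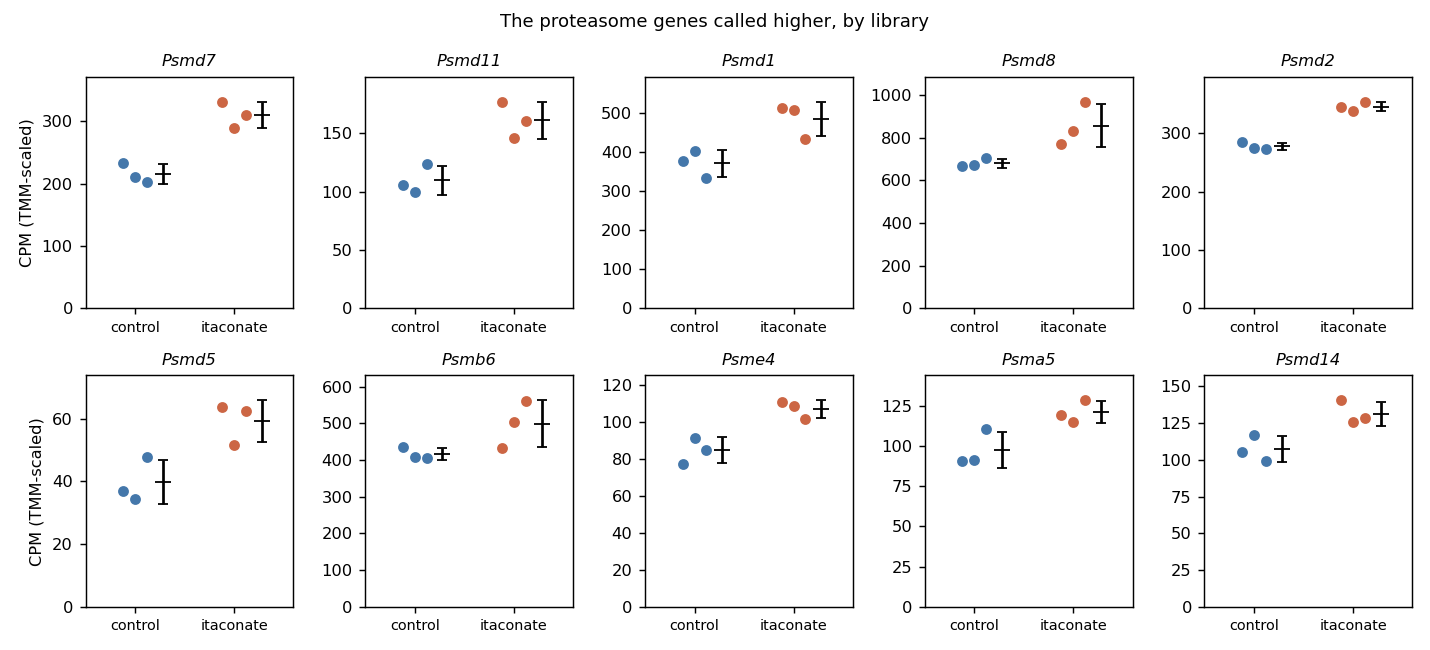
TMM-scaled CPM (y axis, from 0) of the 10 proteasome genes called higher, ordered by p, with a point per library (blue control, orange itaconate) and bars for the mean ± SD over 3 libraries. In 9 of the 10 every itaconate library is above every control library, as in 17.6% of all genes tested. In Psmb6 itaconate replicate 1 lies within the control range. The 10 were picked by their calls in these same libraries, so this separation is no separate support.

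Among the remaining activators and regulators, Psme4 (PA200), a nuclear cap linked to histone degradation, rose from 77.5, 91.6 and 85.3 CPM in control to 111, 109 and 102 CPM in itaconate libraries (0.34 ± 0.12, SE, edgeR adjusted p = 0.0308). The groups did not overlap, but the call was lost without control replicate 1 (0.139), control replicate 3 (0.0671), itaconate replicate 1 (0.0954) or itaconate replicate 2 (0.0969), and with library totals (0.0762). Psme3 (PA28 gamma), the nuclear relative of the interferon-induced PA28 genes, had 87.4, 88.8 and 99.6 CPM against 92.3, 83.0 and 107.9 CPM, with overlapping groups (0.04 ± 0.12, SE, edgeR adjusted p = 0.867). The regulator gene Psmf1 (PI31), whose protein inhibits the core in vitro, had 37.7, 37.7 and 34.3 CPM against 46.1, 41.3 and 39.9 CPM and was not called (0.21 ± 0.17, SE, edgeR adjusted p = 0.405).

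Of the 8 assembly factors, 1 rose (12.5%, near the 10.7% of all genes), 0 fell and 7 were not called, with a median log2 fold change of -0.09. Psmd5, a chaperone that holds base ATPases before the base is complete, had the highest log2 fold change of all members, 0.58 ± 0.16 (SE, edgeR adjusted p = 0.00489). It had 37.0, 34.4 and 47.8 CPM in control and 63.6, 51.8 and 62.6 CPM in itaconate libraries, with no overlap. Without control replicate 2 its log2 fold change was 0.49 and the adjusted p rounded to 0.05, which was no longer a call. The other base chaperones, Psmd9 (p27) and Psmd10 (gankyrin), were not called, at -0.19 ± 0.17 and -0.26 ± 0.12. Psmd10 was called lower with library totals (edgeR adjusted p = 0.0494). Pomp, the maturation factor that helps immature cores join, had 294, 321 and 278 CPM in control and 259, 279 and 278 CPM in itaconate libraries, and was not called (-0.13 ± 0.09, SE, edgeR adjusted p = 0.314). The alpha ring chaperones Psmg1, Psmg2, Psmg3 and Psmg4 had log2 fold changes of 0.13 ± 0.18, -0.23 ± 0.21, -0.06 ± 0.13 and 0.06 ± 0.11, and none was called.

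**Figure D5:**
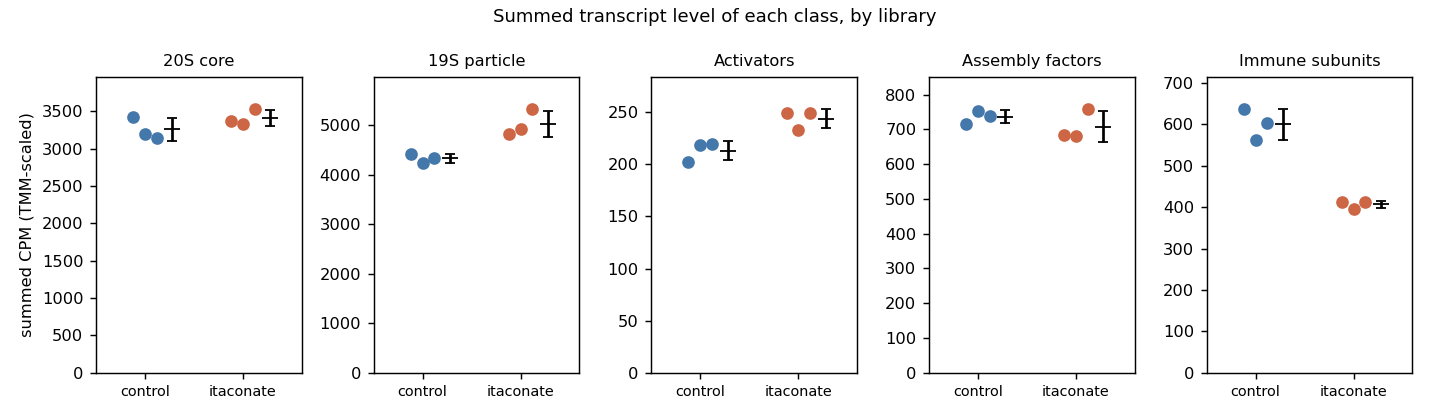
Summed TMM-scaled CPM (y axis, from 0) of the genes of each class, with a point per library (blue control, orange itaconate) and bars for the mean ± SD over 3 libraries. The immune sum goes from 600.1 to 406.8 CPM and the 19S sum from 4324 to 5020 CPM, while the 20S core and assembly sums overlap between groups.

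Psmc3ip, which encodes no proteasome subunit, had 29, 40 and 12 counts in control and 2, 3 and 1 counts in itaconate libraries (log2 fold change -3.55 ± 0.82, SE, edgeR adjusted p = 0.000809). It passed the filter through the control libraries, and 95.7% of its searched 3′ stretches occur in Mlx on the opposite strand, so the count is uncertain.

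Genes around the proteasome were read from lists beside the same background of 10.7% of all genes called higher and 11.2% lower. In the list of the NFE2L1 route 3 of 8 tested rose (37.5%) and 1 fell (12.5%, near the background). Nfe2l1 itself rose, with 95.4, 86.1 and 117.6 CPM in control and 151, 150.2 and 178 CPM in itaconate libraries (0.68 ± 0.11, SE, edgeR adjusted p = 4.98e-06). Mafg, a small MAF partner of the NFE2L1 and NRF2 factors, rose by 0.82 ± 0.09, and Sel1l, an adaptor of ER-associated degradation, by 0.43 ± 0.09. The gene of NRF2, Nfe2l2, fell from 322 ± 8.37 to 272 ± 23.8 CPM (SD, n = 3), with a log2 fold change of -0.25 ± 0.09 (edgeR adjusted p = 0.0358). Its call was lost without the low-count filter (0.0556) and without control replicate 1 (0.0545), 2 (0.0991) or 3 (0.103) or itaconate replicate 1 (0.0791) or 3 (0.164). Ddi2, the protease that activates NFE2L1, was too low to test.

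Of 13 genes of ubiquitin and its activation 5 rose (38.5%, against 10.7% of all genes) and 0 fell, with Uba3, of the NEDD8 activating enzyme, at 0.81 ± 0.21 (edgeR adjusted p = 0.00357), the ubiquitin activating enzyme gene Uba1 at 0.29 ± 0.09 and the conjugating enzyme gene Ube2d3 at 0.27 ± 0.08. Uba1 was not called without control replicate 1 (0.0732) or 3 (0.0576) or itaconate replicate 2 (0.103) or 3 (0.0501), nor Ube2d3 without control replicate 3 (0.128) or itaconate replicate 1 (0.0644). Ubb, a polyubiquitin gene, was not called, at 0.00 ± 0.08. Among ubiquitin shuttles and p97 proteins 4 of 12 tested rose (33.3%) and 0 fell: Ubxn4 (0.51), the shuttle gene Rad23b (0.42), Faf1 (0.46) and Ubxn1 (0.29). Ubxn1 was not called without control replicate 3 (0.0761). Vcp, which encodes p97, was not called (0.14 ± 0.08). Among 12 further proteasome-bound proteins 2 rose, Zfand5 (0.66) and Txnl1 (0.36), and 1 fell, the importin gene Ipo9 (-0.54). These shares of 16.7% higher and 8.33% lower lie near those of all genes (10.7% and 11.2%). Txnl1 lost its call without control replicate 2 (0.0933) or itaconate replicate 1 (0.0923), and Ipo9 without control replicate 1 (0.138) or itaconate replicate 3 (0.104). The 19S deubiquitinase genes Usp14 and Uchl5 and the ubiquitin receptor gene Adrm1 (Rpn13) were not called, at -0.01, -0.21 and 0.19.

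Of 12 tested genes of the interferon route to the immune subunits 0 rose and 5 fell (41.7%, against 11.2% of all genes called lower). Irf1 had 36.0, 48.4 and 37.9 CPM in control and, in itaconate libraries, 24.1, 32.7 and 27.98 CPM (-0.53 ± 0.18, SE, edgeR adjusted p = 0.0308). That difference no longer passed when control replicate 2 (0.224) was left out, or itaconate replicate 1 (0.144) or 3 (0.0623). The interferon gamma receptor gene Ifngr1 fell by 0.68 and Irf2 by 0.35 on the log2 scale, beside Irf9. Irf2 was not called without control replicate 3 (0.0868) or itaconate replicate 1 (0.101) or 2 (0.0651). In the class I list, which takes up proteasome products, 2 of 12 rose (16.7%, against 10.7% of all genes) and 4 fell (33.3%, against 11.2%). The heavy chain gene H2-D1 rose by 1.15 ± 0.07 and H2-K1 by 0.48 ± 0.11. Class I genes are close paralogs, so these values may be uncertain. Shared 3′ stretches were searched only for proteasome members, so sharing was not measured for any gene of this list. Tap1, the calreticulin gene Calr (-0.30), Tapbp (-0.26) and B2m (-0.19) fell. Tapbp lost its call without control replicate 1 (0.0957) or 3 (0.105) or itaconate replicate 1 (0.193) or 2 (0.0524). B2m lost it without control replicate 1 (0.0958) or 2 (0.107), without itaconate replicate 1 (0.148) or 2 (0.221), and with the replicate block (0.0723).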

How the data were processed

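Counts of reads per gene symbol in 6 libraries were deposited by the authors as raw counts, made with STAR 2.7.5a, HTSeq 0.6.1 and the build mm10, per the submitters' processing notes. The libraries were QuantSeq 3′ libraries per the labels' protocols. How strand and multi-mapping reads were handled, and the annotation version, is not given in the sources used. Header names were matched to the 6 columns in order, and each begins with a sample's title written without separators. Totals ran from 5202626 to 6098934, so 3 counts equal 0.492 to 0.577 CPM, counting error only.

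Genes were kept with edgeR's filterByExpr (minimum count 10, minimum total 15), scaled by TMM and tested in edgeR 4.0.16 under R 4.3.3 with its robust quasi-likelihood fit (group as the only term, two-sided F test, Benjamini-Hochberg over 10636 genes, threshold 0.05). Each SE was obtained as |log2 fold change| over the root of F. Alternatives used RLE factors, library totals, DESeq2 1.42.0, limma-voom 3.58.1, no filter, at least 5 CPM in 3 libraries, a replicate block and leaving out each library. Pair ratios had 0.5 added to each count (alternative 2). The fit was tested on simulated data. Shared 3′ ends are 50-base stretches within the last 400 bases of a member's protein-coding transcripts that occur, on either strand, in transcripts of other genes (GENCODE vM21). Coordinates and promoters are RefSeq GRCm38.p6, the assembly mm10 names. Replicate numbers did not pair the libraries (correlation of same-numbered deviations -0.013, 0.017 and 0.038).

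Members and lists were chosen with earlier results of these data known. Values per library are given for the immune subunits, Psmb5 to Psmb7 and, in each class, called members with the smallest p, up to 4. A fold change is given for every called member and every assembly, activator and immune gene. From each list the called genes with the smallest p, up to 4, are named, with Nfe2l1, Nfe2l2, Tap1 and Irf1. Some genes of these lists are counted but not reported here by name. Other genes with values were chosen after their values were seen.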

Additional observations from a re-analysis of the deposited data

How the results depend on the processing

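Across 13 alternatives the calls of Psmd7, Psmd11, Psmd1, Psmd2, Psmd8, Psmb8, Psmb9, Psmb10 and Psme1 held, and no member that was called in any fit changed sign. Against 10 members called higher, leaving out a library gave 6 to 9, and library totals gave 6. These need not be among the 10: the 9 without itaconate replicate 1 included Psmc6 and Psmd4 and lacked Psma5, Psmd14 and Psme4. Leaving out a library gave 0 to 1 called-higher 20S core genes, 0 to 1 called-lower 20S core genes (Psmb4), 0 to 1 called-higher activators and 0 to 1 called-higher assembly factors. Library totals gave 0 called-higher and 1 called-lower 20S core genes, 1 called-lower 19S gene (Psmd13), 0 called-higher activators and 1 called-lower assembly factor (Psmd10). No filter gave 1 called-higher 20S core gene. The cause of these moves was not tested. Library totals moved the median of all genes from -0.01 to -0.06 and of the members from 0.03 to -0.03, and leaving out itaconate replicate 3 moved the members' median to -0.02. The immune subunits called lower numbered 4 to 5 of 5, against 11.2% of all genes tested called lower in the main fit. Of the 16 called members, 8 have under 5% of their 3′ stretches in other genes, 6 higher and 2 lower. Those 8 are among 34 tested members under that limit, and 21.9% of all genes tested were called.

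With the replicate number as a block, which the data do not support as a pairing, 9 members were called higher and 6 lower, against 10 and 6 without it. The paired differences of the log2 ratios stayed at -0.83, -0.95 and -0.92 with an exact paired permutation p = 0.25 each, the smallest 3 pairs allow. Not every same-numbered control and itaconate library correlated best with its own number.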
